A study of Macaca mulatta with 24 samples.

Results

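Colon taken 4 days after total-body irradiation (TBI) with 7.4 Gy was compared with colon taken 4 days after 6.7 Gy, to describe how the day 4 response depended on dose. The samples were chosen by their titles, which give day and dose: 8 of the 24 arrays of the series, 4 animals at 7.4 Gy against 4 animals at 6.7 Gy. The animals were young-adult male rhesus macaques exposed once to cobalt-60 gamma radiation, and whole gut tissue of the colon wall, without pooling, was hybridised to 1-colour Agilent rhesus arrays, 1 animal per array. The 4 controls, labelled day 4, were not irradiated and stand beside both doses. Replicates are separate animals. Errors after ± are standard errors of the dose difference, with a spread estimated in the fit over all 24 arrays. They are not the spread of the 8 animals compared alone. SDs in the figures are those of the 4 animals of a group.

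The colon is lined by a single layer of epithelial cells that is renewed from stem cells at the base of the crypts. Mature surface colonocytes absorb salt and water, burn short-chain fatty acids and seal the lumen off through tight junctions and desmosomes. Radiation kills dividing crypt cells through the DNA damage response, so that shed surface cells are replaced slowly, and the injured wall makes chemokines, antimicrobial proteins and matrix enzymes. Because the whole wall was sampled, its RNA also came from smooth muscle, nerves, vessels, fat and leukocytes, and in such bulk samples fewer cells of a type and less RNA per cell cannot be told apart.

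Values are log2 signals relative to the 75th percentile of the same array, so every difference is relative to it. Pairs of arrays correlated across probes at 0.962 to 0.978 within 6.7 Gy, 0.975 to 0.981 within 7.4 Gy and 0.965 to 0.979 between doses, and probes are not independent replicates. All 13 measured markers of the colon epithelium list, CDX1, CDX2 and VIL1 among the 15 listed, were well above background on all 8 arrays. The layout of the arrays was not balanced over the doses: all 7.4-Gy arrays lay at position 2 of their slides and were scanned on the second scan day, whereas 6.7-Gy replicates 1 and 2 lay at position 1 (second scan day) and replicates 3 and 4 at position 2 (first scan day). All controls lay at position 1. Values within position 2 and within the second scan day, each with 2 animals at 6.7 Gy against 4 at 7.4 Gy, are therefore drawn for every gene list and given in words for the probes that changed and for the lists and genes where they differ most.

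The direct comparison of the doses gave no single call. Of 38229 probes tested with limma, 0 (0%) passed an adjusted p under 0.05 with at least 2-fold difference, and the smallest Benjamini-Hochberg adjusted p of limma was 0.0669. At an unadjusted p under 0.05 with 2-fold difference, 439 probes (1.15%) were counted, 250 higher and 189 lower at 7.4 Gy. With each array scaled to its spike-in control probes, an alternative chosen after seeing the data, the same count split into 331 higher and 159 lower. The split turned within the second scan day (260 higher and 397 lower) and without 7.4-Gy replicate 2 (284 and 316). It also turned on the slides that held both doses (410 and 433). By fewer probes it turned without 6.7-Gy replicate 3 (222 and 237), 6.7-Gy replicate 4 (224 and 231) or 7.4-Gy replicate 3 (214 and 216). Of any size, 2376 of the 38229 probes tested had an unadjusted limma p under 0.05. A share of 0.05 is expected to pass this threshold without any dose difference. The t-test that the methods name called 0 probes once adjusted and counted 200 at the unadjusted threshold with 2-fold difference. Without 6.7-Gy replicate 2 limma called 22 probes and counted 920 at the unadjusted threshold, and within array position 2 it called 240. The median standard error of the dose difference of a probe was 0.24.

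The dose difference was next read in the probes that had changed on day 4. The mean of both doses minus control does not use the difference between the doses. With a balanced layout it could choose probes without fixing which dose is further from control. Here array position and scan day were not balanced over control, 6.7 and 7.4 Gy. An effect of either would enter this mean response and the dose difference with the same sign, and its part was not tested. By the mean of both doses minus control 1045 probes (2.73%) rose and 1155 (3.02%) fell. Of those that rose, 810 (77.5%) were higher at 7.4 than at 6.7 Gy, with a median dose difference of 0.26 and medians against control of 1.27 at 6.7 Gy and 1.51 at 7.4 Gy (2.41- and 2.84-fold). Of those that fell, 920 (79.7%) were lower at 7.4 Gy, with a median difference of -0.31 and medians against control of -1.23 and -1.52 (2.35- and 2.86-fold lower). Over all probes tested 47% were higher at 7.4 Gy and the median difference was -0.02. The arrays of the doses did not overlap, with 7.4 Gy further from control, for 37 probes that rose and 47 that fell, and for 3 and 4 probes the other way. This compares with 1.6% of all probes that did not overlap and were higher at 7.4 Gy and 1.39% that were lower, and the shares among the probes that changed were 3.54% and 4.07%.

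The median of each animal showed how far single animals carried this. Over the probes that rose, the medians against the control mean were 1.32, 1.56, 1.26 and 1.08 in 6.7-Gy replicates 1 to 4 and 1.64, 1.38, 1.81 and 1.37 in 7.4-Gy replicates 1 to 4. Over the probes that fell they were -1.17, -1.47, -1.12 and -1.19 at 6.7 Gy and -1.78, -1.17, -1.78 and -1.46 at 7.4 Gy. In both sets 7.4-Gy replicates 1 and 3 lay beyond every 6.7-Gy animal, and replicates 2 and 4 lay within their range, so the groups overlapped. The control animals lay between -0.04 and 0.03 in the first set and between -0.17 and 0.10 in the second.

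**Figure D1:**
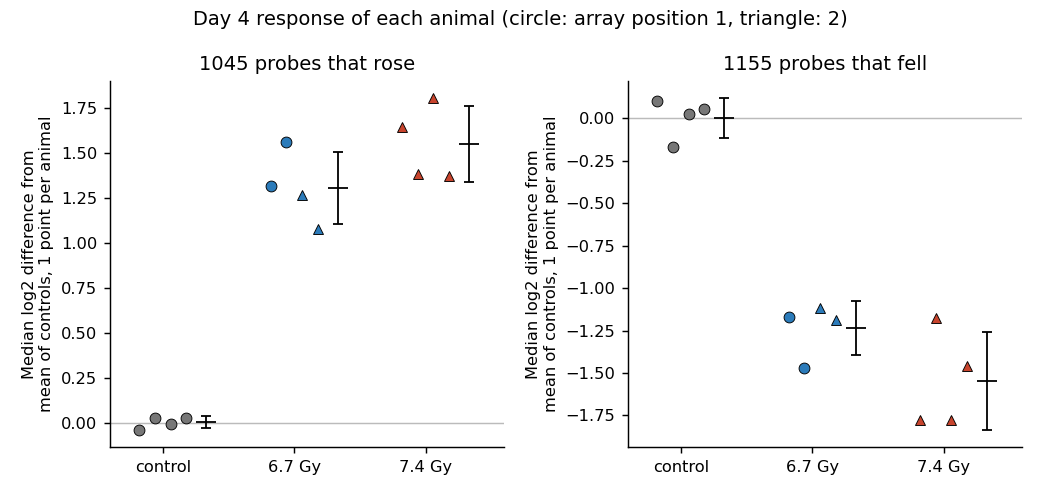
Median log2 difference from the control mean over the 1045 probes that rose (left) and the 1155 that fell (right), 1 point per animal, with the mean and SD of the 4 animals of each group beside them. The 7.4-Gy animals reach 1.81 and -1.78 against 1.56 and -1.47 at 6.7 Gy, and the groups overlap.

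The direction was kept within each array position and scan day that held both doses, whereas the size and the share of probes varied. Within array position 2 the median dose difference was 0.40 for the probes that rose (81.4% higher at 7.4 Gy) and -0.38 for those that fell (79% lower). Within the second scan day, an alternative chosen after seeing the data, it was 0.12 (61.1% higher) and -0.25 (73.2% lower), and on the slides that held both doses 0.16 (62.3%) and -0.31 (75%). Without 7.4-Gy replicate 3 the median of the probes that rose was 0.16, and over 24 other settings the medians ran from 0.12 to 0.43 and from -0.45 to -0.15.

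The dose difference grew with the size of the response, with the same limit of the array layout. Among probes that rose, its median was 0.19 where the mean response was 1 to 1.5 on the log2 scale (621 probes), 0.28 for 1.5 to 2 (187), 0.39 for 2 to 3 (151) and 0.77 above 3 (86), the last a 1.71-fold difference. Among probes that fell, it was -0.26 (725 probes), -0.38 (247), -0.53 (142) and -0.98 (41), the last a 1.97-fold difference. Of the 86 probes with the largest rise, 88.4% were higher at 7.4 Gy. On day 7, in other animals, the same probes differed little between the doses, with medians of 0.03 for those that had risen on day 4 (54.7% higher at 7.4 Gy, against 56% of all probes) and -0.05 for those that had fallen (42.3% higher).

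**Figure D2:**
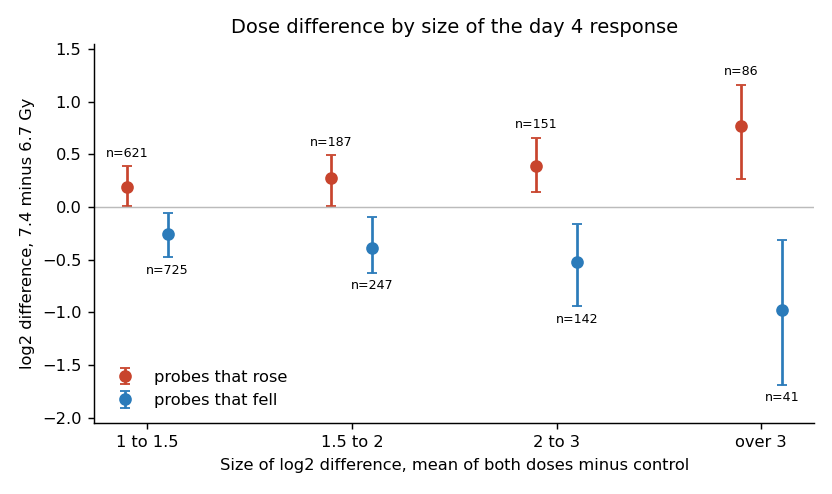
Median (point) and quartiles (bars) of the log2 difference between 7.4 and 6.7 Gy, for probes grouped by the size of their log2 difference from control in the mean of both doses. The medians run from 0.19 to 0.77 in the probes that rose and from -0.26 to -0.98 in those that fell.

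By gene families the dose difference ran in both directions. Of 42 lists of families and cell types, holding 659 measured genes of 832, 23 had a median higher at 7.4 Gy and 19 a lower one, beside a median of -0.01 over all 14739 named genes. The highest medians were those of interferon-stimulated genes (0.84), smooth muscle (0.50) and enteric neurons and glia (0.47), and the lowest were those of surface colonocytes (-0.84), xenobiotic and steroid enzymes (-0.33) and colon epithelium (-0.28). Under 25 other settings, which included each animal left out in turn, 9 of the 23 higher lists and 9 of the 19 lower lists kept the sign of their median. Some of these settings keep the same probes and group means, so they repeat the main estimate and could not turn a sign. The 9 higher ones were the interferon-stimulated genes, other chemokines, collagens, stromal WNT and BMP signals, antigen presentation, p53 targets, interleukin 1 family, complement and wound-associated epithelium. The 9 lower ones were surface colonocytes, xenobiotic and steroid enzymes, colon epithelium, junction scaffold and adhesion, claudins, ion and acid transport, mitochondrial fuel use, oxidative phosphorylation, and B lymphocytes and plasma cells. The lists that turned their sign within the second scan day included smooth muscle, enteric neurons and glia, mast cells, coagulation and serpins, and macrophages. The animal medians of the doses did not overlap for 1 list of the 42 as higher at 7.4 Gy and for 4 as lower. The higher one was other chemokines. The lower ones were ion and acid transport, claudins, xenobiotic and steroid enzymes, and the BCL2 family. All lists were read in the same animals, so these are not separate lines of evidence. How many lists would separate without a dose difference was not tested. Genes named below as the highest or lowest of a list are so among its members that were well above background on all 4 arrays of at least 1 dose.

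**Figure D3:**
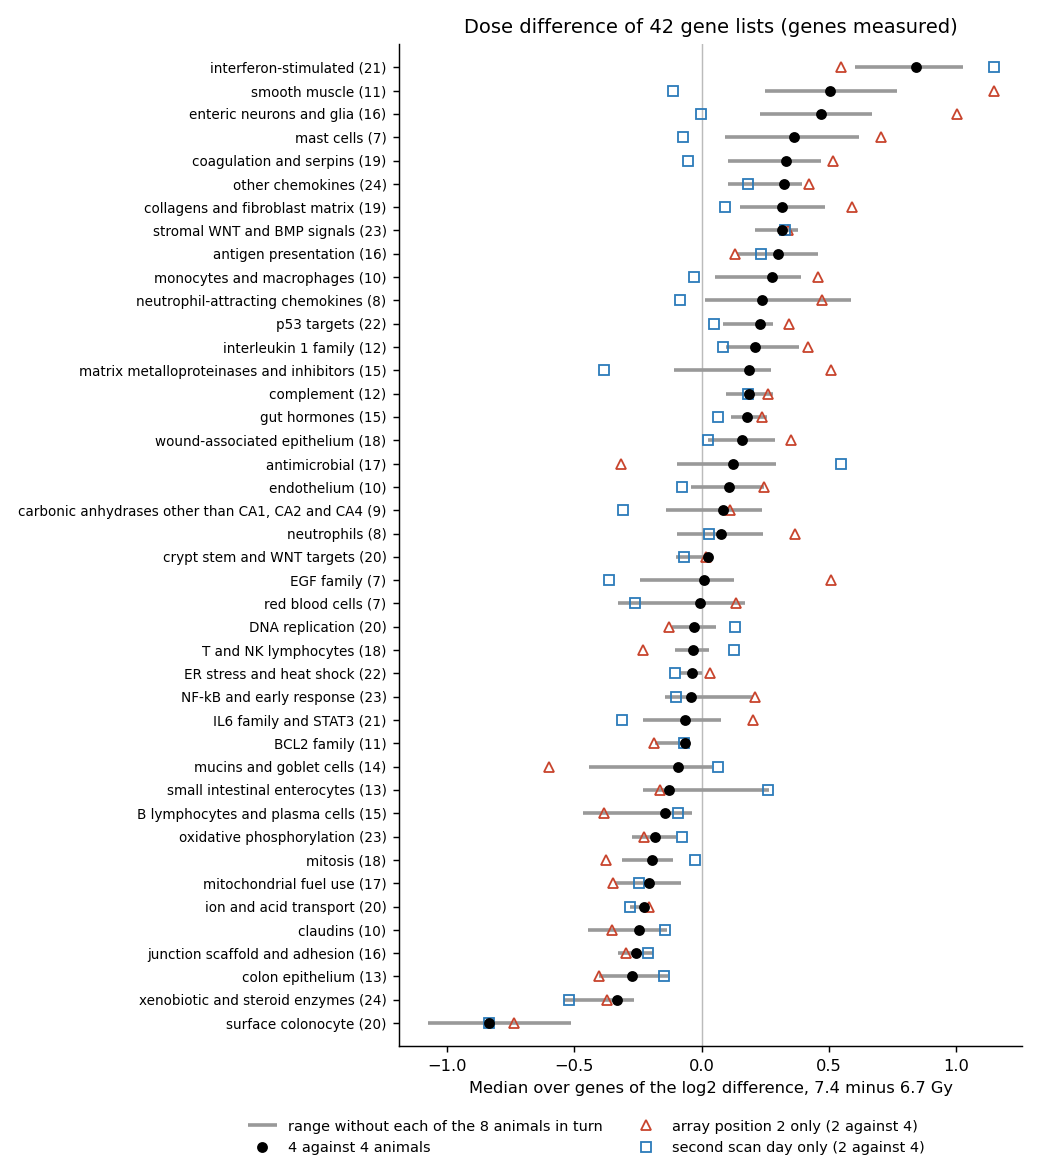
Median over the genes of each list of the log2 difference between 7.4 and 6.7 Gy (black points; number of measured genes in brackets), with the range when each of the 8 animals is left out in turn (grey bars) and the values within array position 2 and within the second scan day (2 against 4 animals each). Surface colonocyte genes stay below -0.51 and interferon-stimulated genes above 0.54 in all that is drawn, and smooth muscle runs from -0.11 to 1.15.

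Genes of mature surface colonocytes were the family that was lowest at 7.4 Gy relative to 6.7 Gy. Of 20 measured members 17 were lower at 7.4 Gy, and their median against control was -1.49 at 6.7 Gy and -2.09 at 7.4 Gy. Of the 20, 14 fell against control (3.22% of all named genes fell), and all 14 were lower at 7.4 Gy, beside 84.4% of the 474 named genes that fell. The median difference was -0.74 within array position 2 and -0.84 within the second scan day. The animal medians were -1.58, -1.84, -1.03 and -1.62 at 6.7 Gy and -3.31, -1.22, -3.28 and -1.77 at 7.4 Gy, so replicates 1 and 3 lay below every 6.7-Gy animal and replicates 2 and 4 among them. With each animal left out in turn the median difference ran from -1.08 (without 7.4-Gy replicate 2) to -0.52 and -0.51 (without 7.4-Gy replicates 1 and 3). At an unadjusted p under 0.05 with 2-fold difference, 4 members were lower at 7.4 Gy (CA2, AQP8, GUCA2A and CHP2) and 0 higher, against 0.502% and 0.678% of all named genes.

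CHP2, a calcium-binding partner of the epithelial sodium-proton exchangers, had the lowest dose difference of the list, -3.09 ± 0.82 (SE of limma, 4 against 4 animals, limma adjusted p = 0.456). Its log2 signal was 0.15, -1.72, 0.30 and -0.36 at 6.7 Gy and -5.46, -0.84, -5.91 and -1.76 at 7.4 Gy, beside 2.77 to 3.13 in the controls. Replicates 1 and 3 at 7.4 Gy were far below all other animals, and 3 of the 4 arrays at 7.4 Gy were well above background. AQP7, a water and glycerol channel, had the highest difference of the list (0.23).

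Transport and fuel genes were lower at 7.4 Gy as well. Ion and acid transport genes were lower in 15 of 20 (median -0.23), and their animal medians did not overlap, with -0.45 to -0.17 at 6.7 Gy and -0.91 to -0.49 at 7.4 Gy. Of the 6 that fell against control, all were lower at 7.4 Gy, beside 84.4% of all named genes that fell. BEST2, an anion channel of the colon epithelium, was lowest, with -0.89, -2.57, -2.40 and -1.44 at 6.7 Gy and -2.98, -1.44, -5.93 and -5.56 at 7.4 Gy (difference -2.15 ± 0.74, limma adjusted p = 0.613). Here 7.4-Gy replicate 2 lay among the 6.7-Gy animals and replicates 1, 3 and 4 below them, and 3 of the 4 arrays at 7.4 Gy were well above background. SGK1, a kinase that raises sodium uptake, was the highest member at 0.12.

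Mitochondrial fuel genes were lower at 7.4 Gy in 15 of 17 (median -0.21). The 7 that fell against control were all lower at 7.4 Gy, beside 84.4% of all named genes that fell. PDK4, a kinase that holds back the use of pyruvate, was the highest member (0.62) and the only one of this list that rose against control. The animal medians of the fuel list overlapped, with -0.92 to -0.44 at 6.7 Gy and -1.03 to -0.39 at 7.4 Gy. Replicate 2 at 7.4 Gy lay above every 6.7-Gy animal, and without 7.4-Gy replicate 3 the median difference was -0.08. Oxidative phosphorylation genes were lower in 17 of 23 (median -0.18), and 0 of the 23 rose or fell against control. They ran from NDUFS3 of complex I at -0.41 (its spot was left out in 6.7-Gy replicate 2) to SDHC of complex II at 0.18. The other probes of SDHC gave -0.14 and -0.18.

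Xenobiotic and steroid enzymes were lower at 7.4 Gy in 18 of 24, with a median of -0.33 and animal medians that did not overlap (-0.67 to -0.45 at 6.7 Gy and -1.53 to -0.69 at 7.4 Gy). HSD17B2, which inactivates sex steroids, had 4.80, 4.21, 4.81 and 3.81 at 6.7 Gy and 2.24, 4.22, 1.13 and 3.25 at 7.4 Gy (difference -1.70 ± 0.53, limma adjusted p = 0.525). Replicate 2 at 7.4 Gy lay within the 6.7-Gy range and the other animals at 7.4 Gy below it. Of the 9 members that fell against control 8 were lower at 7.4 Gy, a share near the 84.4% of all named genes that fell. CYP1A1, the main target of the aryl hydrocarbon receptor, was the exception at 0.67. Among carbonic anhydrases beside the 3 of surface colonocytes, 5 of 9 were higher and the extremes were CA14 at 0.91 and CA7 at -1.61, the latter one of 2 members that fell.

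Epithelial markers and junction genes were nearly all lower at 7.4 Gy. Of 13 measured colon epithelium markers 12 were lower (median -0.28), from VIL1, an actin bundler of the brush border, at -0.63 ± 0.20 (limma adjusted p = 0.589) to KRT18 at 0.07. Their summed signal, in units of the 75th percentile of the array, was 756 to 953 in controls, 388 to 569 at 6.7 Gy and 294 to 455 at 7.4 Gy. Junction scaffold and adhesion genes were lower in 15 of 16 (median -0.26), and 2 of them, CDH17 among these, had arrays that did not overlap, against 1.52% of all named genes (2.04% for higher at 7.4 Gy). DSP, the desmosome protein desmoplakin, was lowest, with 2.66, 2.66, 2.78 and 2.53 at 6.7 Gy and 2.15, 1.62, 1.86 and 2.62 at 7.4 Gy (difference -0.60 ± 0.22, limma adjusted p = 0.639). Replicate 4 at 7.4 Gy was within the 6.7-Gy range. F11R, the adhesion molecule JAM-A, differed by 0.02, but its other probes gave -0.35 and -0.38.

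Claudins, the strand proteins of tight junctions, diverged. Of 10 measured members 7 were lower at 7.4 Gy (median -0.25), and the animal medians did not overlap (-0.16 to 0.03 at 6.7 Gy and -0.50 to -0.23 at 7.4 Gy). CLDN8, a claudin that seals against sodium, fell against control and had -0.42, -2.98, -0.30 and 0.33 at 6.7 Gy and -3.84, -2.96, -4.04 and -1.64 at 7.4 Gy (difference -2.28 ± 0.55, limma adjusted p = 0.344). Replicate 2 at 6.7 Gy was the animal that lay among the 7.4-Gy ones. The median difference of the list was -0.40 without it, -0.45 without 7.4-Gy replicate 2 and -0.14 without 7.4-Gy replicate 1, and -0.35 within array position 2 and -0.14 within the second scan day. CLDN2, which forms a cation and water pore, rose against control and was 0.89 ± 0.93 higher at 7.4 Gy (limma adjusted p = 0.936), with 1.40, 1.13, 1.54 and 0.42 at 6.7 Gy and 2.45, 1.25, 2.77 and 1.58 at 7.4 Gy. These ranges overlap, and 1 of the 4 control arrays was well above background for CLDN2.

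Interferon-stimulated genes, the antiviral program that cells switch on in answer to interferons, were the family that was highest at 7.4 Gy relative to 6.7 Gy. Of 21 measured members 20 were higher at 7.4 Gy, with a median difference of 0.84, and their median against control was 0.06 at 6.7 Gy and 0.81 at 7.4 Gy. The animal medians were -0.20, -0.36, 0.06 and 0.56 at 6.7 Gy and 0.56, 0.20, 1.80 and 0.95 at 7.4 Gy, and the controls spanned -0.42 to 0.41. Replicate 4 at 6.7 Gy reached the lower 7.4-Gy animals, so the groups overlapped at 1 animal, and 7.4-Gy replicate 3 stood highest. The median difference was 0.55 within array position 2, 1.15 within the second scan day, 1.73 on the slides that held both doses, and 0.60 to 1.03 with each animal left out in turn.

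At an unadjusted p under 0.05 with 2-fold difference, 6 of the 21 were counted, all higher at 7.4 Gy, against 0.678% of all named genes. IFI27, a mitochondrial protein induced by interferon, rose against control and had 3.34, 2.88, 3.48 and 4.11 at 6.7 Gy and 4.42, 4.00, 6.04 and 5.34 at 7.4 Gy (2.82-fold, limma adjusted p = 0.486). Replicate 4 at 6.7 Gy was just above the lowest 7.4-Gy animal. IFIT1, which binds foreign RNA, had arrays that did not overlap, with -0.92, -2.30, -0.78 and -0.72 at 6.7 Gy and -0.61, -0.04, 1.31 and 0.04 at 7.4 Gy (difference 1.36 ± 0.43, limma adjusted p = 0.56). RSAD2, the antiviral enzyme viperin, was the exception: it fell against control and differed by -0.71.

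Antigen presentation genes, many of them targets of interferon gamma, were higher in 10 of 16 (median 0.30). TAP1, a peptide transporter of this pathway, was highest at 0.90 ± 0.47 (SE of limma), with 3.40, 2.72, 3.42 and 4.49 at 6.7 Gy and 4.54, 3.51, 5.02 and 4.53 at 7.4 Gy. The ranges of TAP1 overlap between the doses, and limma called 0 of the 16 genes against control. T and NK lymphocyte markers had a median dose difference of -0.03 and a summed signal of 62.1 to 82.4 at 6.7 Gy and 58.6 to 78.3 at 7.4 Gy.

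**Figure D4:**
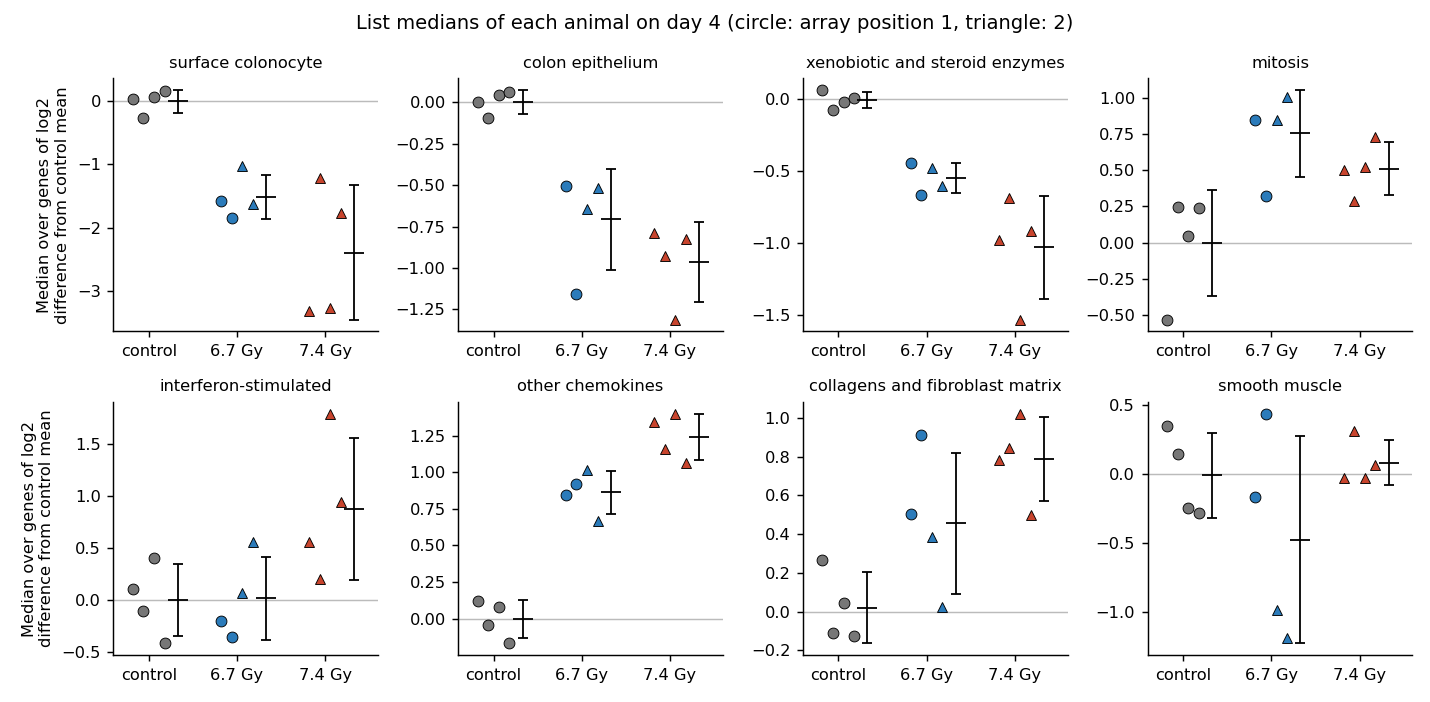
Median over the genes of 8 lists of the log2 difference from the control mean, 1 point per animal, with the mean and SD of the 4 animals of each group. Surface colonocyte medians reach -3.31 at 7.4 Gy against -1.84 at 6.7 Gy, interferon-stimulated medians reach 1.80 against 0.56, and 6.7-Gy replicates 3 and 4 are the lowest animals for smooth muscle.

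Chemokines apart from those that attract neutrophils were higher at 7.4 Gy in 17 of 24 (median 0.32). Their animal medians did not overlap, with 0.67 to 1.02 at 6.7 Gy and 1.06 to 1.40 at 7.4 Gy, and without 6.7-Gy replicate 4 the median difference was 0.10. Of the 10 members that rose against control (3.37% of all named genes rose), 8 were higher at 7.4 Gy, a share near the 74.8% of the 497 named genes that rose. CCL8, which attracts monocytes, was not called in the mean of both doses against control and had -0.87, -1.80, -2.13 and -1.21 at 6.7 Gy and 0.46, -0.46, 1.48 and -0.12 at 7.4 Gy, a 3.59-fold difference (log2 1.84 ± 0.61, limma adjusted p = 0.602). All 7.4-Gy animals were above all 6.7-Gy animals, and the other probes of CCL8 gave 1.99 and 1.66. CXCL10 and CXCL11, chemokines induced by interferon, were the other members counted at the unadjusted threshold, both higher at 7.4 Gy. CCL17 rose against control and differed by -1.07.

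The neutrophil-attracting chemokines rose in 6 of 8 members and showed no common dose difference: 5 were higher and 3 lower at 7.4 Gy, and the median of 0.24 was -0.08 within the second scan day. CXCL8, the main neutrophil attractant, rose against control and had 0.30, 1.52, -0.81 and -1.42 at 6.7 Gy and 0.31, -0.86, 1.54 and -1.92 at 7.4 Gy (difference -0.13 ± 0.76, limma adjusted p = 0.991). CXCL17 was the highest of the list at 1.36, with 0.50 and 0.16 in 7.4-Gy replicates 1 and 3 and -6.37 and -3.55 in replicates 2 and 4. CXCR1, the receptor of CXCL8, was the lowest at -0.46.

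Cytokine and defence families differed little on balance. NF-kB and early response genes were higher in 10 of 23 (median -0.04), from FOS at -0.62 to IRF1, which interferon also induces, at 0.78, and 4 of the 8 that rose were higher at 7.4 Gy. The IL6 family and STAT3 list had a median of -0.06 (SAA1 1.03, OSMR -0.55). The interleukin 1 family had a median of 0.21, with IL1A, an alarm cytokine of damaged epithelium, highest at 1.33 ± 0.76 (limma adjusted p = 0.859) and IL18 lowest at -0.33. Of 11 antimicrobial genes that rose, 7 were higher at 7.4 Gy, beside 74.8% of all named genes that rose. The median of the list was 0.12, but it turned to -0.32 within array position 2 and to -0.10 without 6.7-Gy replicate 2, and was 0.55 within the second scan day.

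Within the antimicrobial list DEFA6, a defensin of Paneth cells, was highest, with -2.98, -5.93, 0.74 and 2.30 at 6.7 Gy and 2.56, -0.12, 1.09 and 1.23 at 7.4 Gy (difference 2.66 ± 1.58, limma adjusted p = 0.87). The low values were those of 6.7-Gy replicates 1 and 2. PLA2G2A, a bactericidal phospholipase, rose against control and differed by -0.90. RETNLB, an antibacterial goblet cell product, had arrays that did not overlap, with 1.28, 3.22, 3.61 and 2.38 at 6.7 Gy and 4.22, 5.72, 4.87 and 4.07 at 7.4 Gy (difference 2.10 ± 1.13, limma adjusted p = 0.839). TFF3, the trefoil peptide of goblet cells, differed the other way (-0.98 ± 0.36, limma adjusted p = 0.673), and mucin and goblet cell genes together were higher in 6 of 14 with a median of -0.09 (-0.60 within array position 2 and 0.06 within the second scan day).

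Matrix metalloproteinases and their inhibitors had a median of 0.19 that turned to -0.39 within the second scan day. The medians of the list against control ran the other way, 1.38 at 6.7 Gy and 0.84 at 7.4 Gy. MMP7, an epithelial matrix protease, rose against control and had -3.71, -3.84, -3.20 and -5.05 at 6.7 Gy and -0.55, -2.51, -0.33 and -4.78 at 7.4 Gy (difference 1.91 ± 0.95, limma adjusted p = 0.814), so 3 of 4 animals at 7.4 Gy were above all at 6.7 Gy. MMP3, a stromal protease, differed by -0.87. Wound-associated epithelial genes were higher in 13 of 18 (median 0.16). All 5 that rose were higher at 7.4 Gy, beside 74.8% of all named genes that rose. Their extremes were SERPINB5, a serpin of epithelial cells, 2.83-fold higher at 7.4 Gy, and KRT17, a keratin that fell against control, with a log2 difference of -1.15.

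The p53 targets, the transcripts that DNA damage switches on, were higher at 7.4 Gy in 18 of 22 (median 0.23). Of the 10 that rose 9 were higher, with CDKN1A as the exception, beside 74.8% of all named genes that rose. Their animal medians were 0.57 to 1.12 at 6.7 Gy and 0.91 to 1.07 at 7.4 Gy, which overlap, and the median difference was 0.05 within the second scan day. TP53I3 was highest at 0.67 ± 0.25 (limma adjusted p = 0.682) and PLK3 lowest at -0.28. GDF15, a secreted stress cytokine among these targets, rose against control and had 5.60, 5.86, 4.99 and 3.79 at 6.7 Gy and 5.92, 4.70, 5.84 and 4.80 at 7.4 Gy (difference 0.25 ± 0.41, limma adjusted p = 0.958). BCL2 family genes, the regulators of apoptosis, had a median difference of -0.06, which spike-in scaling turned to 0.04, and medians against control of -0.10 at 6.7 Gy and -0.37 at 7.4 Gy. Their animal medians did not overlap, with -0.11 to 0.13 at 6.7 Gy and -0.47 to -0.20 at 7.4 Gy. Single members ran from BIK, a death-promoting member, at -0.52 to BCL2A1, a survival member, at 0.44.

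All 18 measured mitosis genes were lower at 7.4 Gy, although by little: the differences ran from -0.45 for CDC25C, the phosphatase that opens mitosis, to -0.07 for AURKA, a spindle kinase that rose against control. The median difference was -0.20, and the medians against control were 0.76 at 6.7 Gy and 0.46 at 7.4 Gy. The animal medians overlapped, with 0.85, 0.32, 0.85 and 1.01 at 6.7 Gy and 0.50, 0.28, 0.52 and 0.73 at 7.4 Gy, and the difference was -0.03 within the second scan day and 0.07 on the slides that held both doses. DNA replication genes were not lower together: 9 of 20 were higher (median -0.03), TYMS at 0.52 and CDT1 at -0.35. Crypt stem and WNT target genes had a median of 0.02, with NKD1, a feedback inhibitor of WNT, at 0.98 and PROM1 at -0.56, and the EGF family a median of 0.01 over 7 genes (BTC 0.28, EREG -0.40).

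Genes of the wall below the epithelium were mostly higher at 7.4 Gy. Collagens and fibroblast matrix genes were higher in 15 of 19 (median 0.32), and COL1A2, COL3A1 and FBN1 had arrays that did not overlap, 3 of 19 beside 2.04% of all named genes. COL6A3, a chain of microfibrillar collagen, rose against control and had 3.01, 3.36, 3.02 and 2.35 at 6.7 Gy and 4.19, 3.48, 3.93 and 3.25 at 7.4 Gy (difference 0.78 ± 0.26, limma adjusted p = 0.603). CTGF, a matrix growth factor, differed by -0.47. Stromal WNT and BMP signals were higher in 18 of 23 (median 0.32), led by RSPO2, which amplifies WNT signals, with -1.83 to -1.26 at 6.7 Gy and -1.08 to -0.37 at 7.4 Gy (difference 0.88 ± 0.32, limma adjusted p = 0.639) and with HGF lowest at -0.19.

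The muscle, nerve and mast cell lists moved with 6.7-Gy replicates 3 and 4. All 11 smooth muscle markers were higher at 7.4 Gy (median 0.50, from TPM1 at 0.32 to SYNM at 0.75), and limma called 0 of them against control. The other probes of TPM1 gave 0.11, 0.11 and -0.18. The animal medians were -0.17, 0.44, -0.99 and -1.19 at 6.7 Gy and -0.03, 0.31, -0.03 and 0.07 at 7.4 Gy, and the summed signal was 725 to 1105 in controls, 336 to 1132 at 6.7 Gy and 718 to 942 at 7.4 Gy, outlier spots left out. Replicates 3 and 4 at 6.7 Gy were thus below every control and every 7.4-Gy animal, and the median difference was 1.15 within array position 2 and -0.11 within the second scan day. Without 6.7-Gy replicate 3 or 4 it was 0.27 or 0.25, and without replicate 2 it was 0.77. Enteric neuron and glia markers were higher in 13 of 16 (median 0.47, VIP 0.79, SOX10 -0.16) and mast cell markers in 6 of 7 (median 0.36, FCER1A 0.83, CMA1 -0.12), with -0.002 and -0.07 within the second scan day. GFAP, a glia marker, was counted as 2-fold lower at 7.4 Gy at an unadjusted limma p under 0.05, and 0 of the 16 as higher (0.502% and 0.678% of all named genes). It was not well above background on all 4 arrays of either dose. Collagens and stromal signals had medians of 0.59 and 0.34 within array position 2, and of 0.09 and 0.33 within the second scan day. The part of the muscle layer in the dose difference of collagen and stromal genes was not tested.

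Coagulation genes and serpins were higher in 14 of 19 (median 0.33, and -0.06 within the second scan day). F13A1, the clot-linking factor XIII chain that macrophages also make, was highest, with -2.48, -1.50, -3.59 and -3.78 at 6.7 Gy and -1.75, -1.54, -1.20 and -2.31 at 7.4 Gy (difference 1.14 ± 0.43, limma adjusted p = 0.684). TFPI2, a protease inhibitor of the matrix, rose against control and differed by -0.98. Complement genes were higher in 8 of 12 (median 0.19), with CFD, a protease that fat cells secrete, at 1.13 and C5AR1 at -0.21. The CFD difference rested on 6.7-Gy replicate 1, at -0.51 beside 3.92 to 5.13 in the other animals at 6.7 Gy.

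Leukocyte, vessel and blood markers differed less. Macrophage markers were higher in 9 of 10 (median 0.27, LYVE1 0.82, FCER1G -0.22), and -0.03 within the second scan day. Neutrophil markers had a median of 0.08 over 8 genes (VNN2 1.36, FPR1 -0.28). Their summed signals were 4.67 to 21.2 at 6.7 Gy and 8.12 to 39.6 at 7.4 Gy beside 1.28 to 1.80 in controls. A large part of these sums is VNN2, with mean log2 signals of -0.90 in controls, 2.84 at 6.7 Gy and 4.20 at 7.4 Gy. FPR1 had -1.97, -1.64 and -1.93, and 3 of the 8 genes rose against control. Lymphocyte medians were -0.03 for T and NK cells (CD3G 0.30, GZMK -0.71) and -0.14 for B and plasma cells (CD38 0.04, FCRLA -0.57). Endothelium was higher in 9 of 10 by a median of 0.11 (SELP 0.30, VCAM1 -0.06), which turned to -0.08 within the second scan day and to -0.04 without 6.7-Gy replicate 4. Red blood cell genes differed by -0.01 (HBG2 0.21, HBA2 -0.29), gut hormone genes by 0.18 (CPE 0.75, PYY -0.56) and ER stress and heat shock genes by -0.04 (CHAC1 0.63, ERN2 -0.72). Of the 15 gut hormone genes 12 were higher at 7.4 Gy. INSL5 and GIP were counted as 2-fold lower at an unadjusted limma p under 0.05, and 0 as higher (0.502% and 0.678% of all named genes). Neither was well above background on all 4 arrays of either dose. Small intestinal enterocyte genes differed by -0.13 (SLC10A2 lowest at -0.74), with 6 of 13 higher at 7.4 Gy. Their medians against control were 0.18 at 6.7 Gy and 0.31 at 7.4 Gy, the other direction.

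Single genes were chosen by a rule rather than by a call: arrays of the doses that did not overlap, with an unadjusted limma p under 0.05 and a signal well above background on all 4 arrays of at least 1 dose. None of these genes was called in the main comparison. By lack of overlap alone, before the p and signal conditions, 301 genes (2.04% of all 14739 named genes) were higher at 7.4 Gy. Of 172 genes that met the whole rule as higher at 7.4 Gy the 10 with the largest difference were CIDEA, FIGF, ADIPOQ, MRAP, HKDC1, CCL8, INMT, MYOM2, KLB and IFIT1. A gene can pass this rule through the 7.4-Gy arrays alone: at 6.7 Gy FIGF was well above background on 0 of 4 arrays, INMT and KLB on 1 and CIDEA on 2, so the order of these genes by size is uncertain. MRAP, a partner of melanocortin receptors, rose against control and had the smallest adjusted p, with -3.51, -3.20, -4.49 and -3.15 at 6.7 Gy and -1.63, -1.81, -1.12 and -1.61 at 7.4 Gy (difference 2.05 ± 0.31, limma adjusted p = 0.0669). Its other probe differed by -0.81, so the 2 probes disagreed. Limma called MRAP with array position as a block (adjusted p = 0.0247) and within position 2, with the same difference of 2.28. Both settings take the 6.7-Gy level from replicates 3 and 4 alone, so they are 1 estimate. Within the second scan day the difference was 1.81 (limma adjusted p = 0.201). HKDC1, a hexokinase family member, rose against control and was 3.97-fold higher at 7.4 Gy (log2 1.99 ± 0.47, limma adjusted p = 0.31), with -0.54 to 0.18 at 6.7 Gy and 1.25 to 2.84 at 7.4 Gy.

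FIGF, the lymphatic growth factor VEGF-D, was not well above background on any 6.7-Gy array and was well above it on all 4 at 7.4 Gy, at least 2.95-fold higher (limma adjusted p = 0.126). The bound sets the 7.4-Gy mean against a floor for 6.7 Gy, taken on each array as the dimmest signal still well above background unless the probe itself was brighter. CIDEA and ADIPOQ, a lipid droplet protein and the hormone adiponectin of fat cells, differed by 2.80 ± 0.66 (limma adjusted p = 0.31, with 2 of 4 CIDEA arrays at 6.7 Gy not well above background) and 2.10 ± 0.45 (limma adjusted p = 0.235). ADIPOQ had -1.55, -2.17, -3.59 and -2.60 at 6.7 Gy and 0.06, -0.40, -0.36 and -0.79 at 7.4 Gy, and the controls, at -0.59, -1.57, -1.27 and -1.998 in replicates 1 to 4, overlapped both doses. Limma called both genes with array position as a block (adjusted p = 0.0197 for CIDEA and 0.0342 for ADIPOQ), with differences of 4.24 and 2.72. These are also the differences within position 2, against 6.7-Gy replicates 3 and 4 alone. Limma called neither gene within the second scan day (1.37 and 1.49). MYOM2, a protein of the muscle sarcomere, had its lowest values in 6.7-Gy replicates 3 and 4 (-4.56 and -3.19), the animals that were lowest for smooth muscle.

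By lack of overlap alone, 224 genes (1.52% of all 14739 named genes) were lower at 7.4 Gy. Of 120 genes that met the whole rule as lower at 7.4 Gy the 10 with the largest difference were PITPNC1, SIM2, GJB1, THSD4, CAPN8, CYP4F8, RAB27A, MTUS1, FUOM and ATP8. GJB1, the gap junction protein connexin 32 of epithelial cells, had 2.85, 2.32, 2.82 and 3.09 at 6.7 Gy and 1.77, 1.71, 1.46 and 2.06 at 7.4 Gy (difference -1.02 ± 0.16, limma adjusted p = 0.0669). All 7.4-Gy animals were below all 6.7-Gy animals and below the controls (2.78 to 3.26), and 6.7-Gy replicate 2 was the animal at 6.7 Gy below the controls. Limma called GJB1 with array position as a block (difference -1.20, adjusted p = 0.0247) and, from the same difference, within position 2. Limma also called it with quantile normalization, with the stricter signal filter, and without 6.7-Gy replicate 2 or 7.4-Gy replicate 4. Within the second scan day it was not called (-0.83, limma adjusted p = 0.368). CYP4F8, a cytochrome P450 of fatty acids, fell against control and differed by -0.97 ± 0.18 (limma adjusted p = 0.114), with -0.37 to 0.39 at 6.7 Gy and -1.16 to -0.59 at 7.4 Gy, and was called with array position as a block (limma adjusted p = 0.0247). RAB27A, a GTPase of regulated secretion, differed by -0.94 ± 0.21 (limma adjusted p = 0.235) and FUOM, a fucose mutarotase that fell against control, by -0.92 ± 0.21 (limma adjusted p = 0.276). PITPNC1, a phosphatidylinositol transfer protein, was lowest at -1.53, but its other probes gave -0.13 and -0.11.

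**Figure D5:**
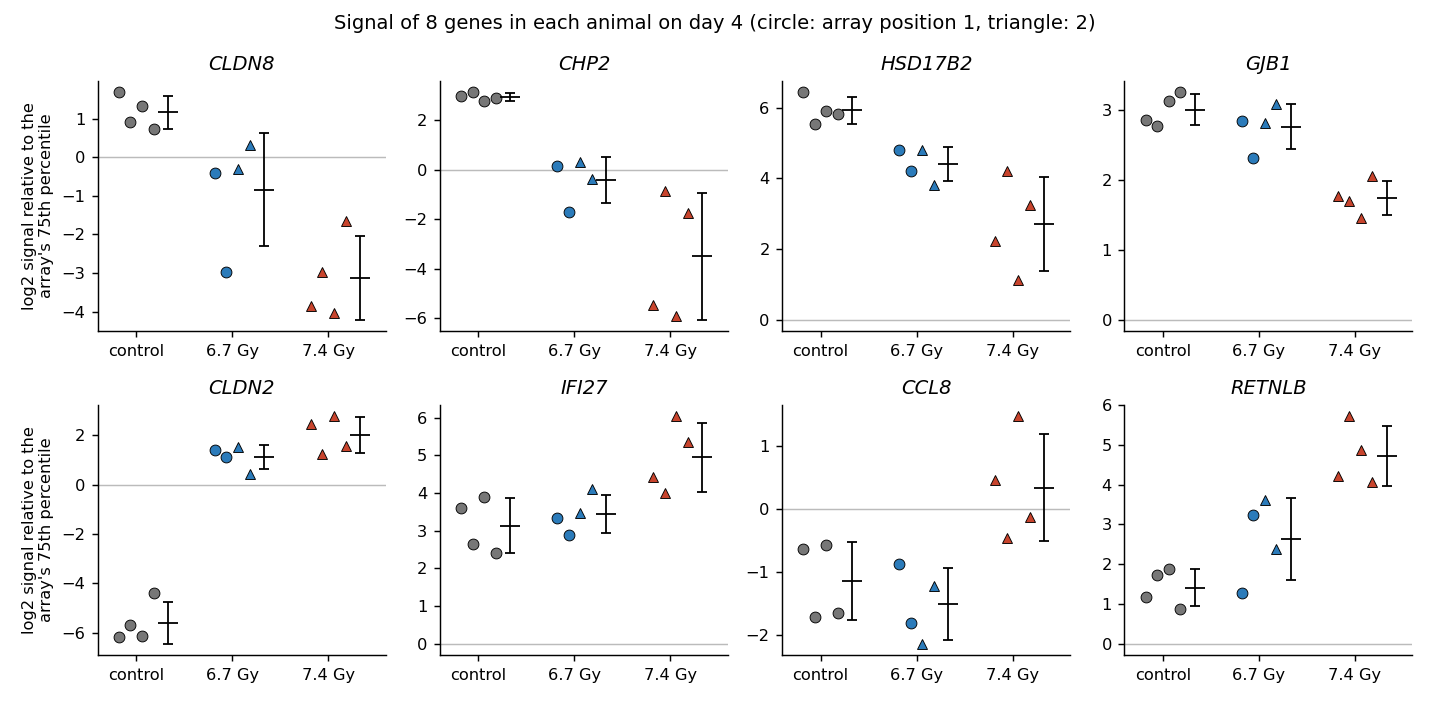
Log2 signal relative to the 75th percentile of the array for 8 genes, 1 point per animal, with the mean and SD of the 4 animals of each group. For GJB1, CCL8 and RETNLB the doses do not overlap, whereas for CLDN8, CHP2, HSD17B2, CLDN2 and IFI27 1 or more animals of one dose lie in the range of the other.

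The genes with the largest responses were not, one by one, the ones that separated the doses. Of the 8 that rose most against control, CLDN2, LCN15, GPR110, ANKRD65, SAA1, TGM3 and GDF15 had positive dose differences of 0.25 to 1.81, and CXCL8 one of -0.13. Of the 8 that fell most, the differences of those named here were -3.09 for CHP2, -2.36 for the urea transporter gene SLC14A2, -2.15 for BEST2, -1.69 for PCK1 of gluconeogenesis, -1.40 for CA1, -0.84 for TMIGD1 and -0.01 for HBB, the beta globin of red cells. The doses overlapped for all 16. Some of these signals were near background: at 6.7 and 7.4 Gy, CA1 cleared it in 2 and 1 of the 4 animals, SLC14A2 in 3 and 1, and TMIGD1 in 3 and 2.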

How the data were processed

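RNA of each colon sample was labelled with Cy3 and hybridised to an Agilent rhesus array. The deposited scanner intensities (Feature Extraction processed signals) were made by the authors' scanner software, per the file headers with background subtraction and spatial detrending, and the deposited series table holds the authors' normalized log2 values, used as an alternative. Intensities were taken as log2, minus the 75th percentile of each array. Outlier spots were left out, spots of 1 probe were averaged, and probes well above background on at least 2 of 24 arrays were kept (38229). All 24 arrays were fitted in limma 3.58.1 (R 4.3.3) with 1 mean per group and Benjamini-Hochberg adjustment; a call needs an adjusted p under 0.05 and 2-fold difference. A gene is its probe of highest mean signal. Of 43603 probes 18640 were named by the files and 3268 more through RefSeq accessions.

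Genes were named by 3 rules: the 10 highest and 10 lowest without overlap between doses, the 8 largest rises and 8 largest falls against control, and the highest and lowest measured member of each list. Samples, members and lists were chosen with earlier results of these data known. The fit was tested on simulated data. Alternatives were normexp background correction (on median spot signals, offset 50), other scalings, filters, blocks for slide, position, scan day and replicate number, single batches, a t-test, and each animal left out. Array precision is limited by the number of animals, 4 per dose. Some genes that these rules name are not reported here.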

Additional observations from a re-analysis of the deposited data

Results flagged for a closer look

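In 160 groups of 4 animals, 8 had 1 animal far from the other animals of its group. This is the rate of about 1 in 20 that chance gives. The groups share the same 8 arrays and are not independent, so the values below are a description only. Values are log2 differences from the control mean. For ion and acid transport genes 7.4-Gy replicate 3 stood at -0.91, beside -0.52 to -0.49 in the other animals. For the interleukin 1 family the same animal stood at 1.26 (others 0.37 to 0.52), and for DNA replication 7.4-Gy replicate 4 stood at 0.84 (others 0.41 to 0.48). IFIT1 was at -1.46 in 6.7-Gy replicate 2 (others -0.08 to 0.12) and FUOM at -2.21 in 7.4-Gy replicate 3 (others -1.64 to -1.59). In 7.4-Gy replicate 2 GPR110 was at 5.17 (others 6.30 to 6.47) and CA1 at -4.94 (others -8.50 to -8.19). TMIGD1 was at -7.03 in 6.7-Gy replicate 4 (others -3.59 to -2.98).

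For CIDEA, ADIPOQ and INMT every 6.7-Gy animal lay below the control mean and every 7.4-Gy animal above it, with dose differences of 2.80, 2.10 and 1.79. At 6.7 Gy CIDEA was well above background on 2 of 4 arrays and INMT on 1 of 4, so their sizes and sides rest in part on signals near background. Whether the effects of the doses against control differ was not tested apart from the dose comparison itself, which did not call these genes (limma adjusted p = 0.31, 0.235 and 0.603). Blocking on array position, limma did call CIDEA and ADIPOQ (adjusted p = 0.0197 and 0.0342), and not INMT (0.0791). That block takes the 6.7-Gy level from replicates 3 and 4 alone, as the values within position 2 do.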

How the results depend on the processing

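Calls between the doses numbered 1 with normexp, quantile normalization, shared slides, position with scan day, or the second scan day, 2 for probes well above background on all 8 arrays, 114 with array position as a block and 240 within position 2. Leaving out 1 animal gave 0 to 22 (22 without 6.7-Gy replicate 2, 4 without 7.4-Gy replicate 4). The unadjusted count was 128 with normexp, 184 with the strict filter, 1561 with the position block, 1571 within position 2, 843 on shared slides, 1589 with position and scan day, 200 by t-test and 430 to 920 with 1 animal left out. Same-numbered animals did not deviate together (r = -0.18, 0.13, -0.04 and 0.13), so the numbers pair no samples. With the replicate block there were 0 calls, 410 unadjusted, and medians of 0.26 and -0.31. The 2 response medians kept their direction in all 24 alternatives, but some of these repeat the main estimate. Without the filter on dim probes, and with the 8 arrays fitted alone, the medians were 0.26 and -0.31 again. The position block and position 2 alone are 1 estimate. The 24 settings are therefore not separate checks.

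List medians moved as follows. Position with scan day gave ion transport -0.43, junctions -0.41, other chemokines 0.57, IL6 0.43, EGF 0.93, crypt -0.19, wound 0.48, mitosis -0.66, BCL2 -0.36, collagens 0.76, stromal signals 0.56, coagulation 0.77, complement 0.51, neutrophils 0.68, macrophages 0.64, endothelium 0.41, smooth muscle 1.22 and colon epithelium -0.60. Position alone, as a block or within position 2, gave EGF 0.51, BCL2 -0.19, T and NK cells -0.23, smooth muscle 1.15 and neurons 1.001, and the slide block gave BCL2 -0.23. Shared slides gave carbonic anhydrases -0.37, mitosis 0.071, DNA replication 0.29, gut hormones -0.094, interferon 1.73, antigen presentation 0.59, coagulation -0.11, T and NK cells 0.25, smooth muscle -0.15, enterocytes 0.17 and mast cells -0.18. The second scan day gave carbonic anhydrases -0.31, p53 targets 0.049, EGF -0.36, coagulation -0.056, smooth muscle -0.11 and enterocytes 0.26. With 1 animal left out claudins ran from -0.45 to -0.14, other chemokines from 0.10 to 0.39, EGF from -0.24 to 0.13 and enterocytes from -0.23 to 0.26.

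Genes that reversed were CXCL8 (0.89 by position, 1.4954 by position and scan day, 0.17 as the median of its probes, and -0.72 to 0.43 with 1 animal left out), HBB (1.06 by position, 0.76 by position and scan day, 0.050 as the median of its probes, 0.048 with spike-in scaling, and -0.47 to 0.45 with 1 animal left out), ANKRD65 (-0.11 on shared slides), SAA1 (-0.34 by position), GDF15 (-0.41 on shared slides and on the second scan day, -0.17 to 0.52 with 1 animal left out, the lowest without 6.7-Gy replicate 4), CA1 (0.035 by position), TMIGD1 (0.31 by position) and SLC14A2 (0.49 by position and scan day). Genes called under at least 1 alternative were CIDEA, ADIPOQ, MRAP, GJB1, CYP4F8, MTUS1 and FUOM, all of them within position 2. The cause was not tested. The second scan day and spike-in settings were chosen after seeing the data.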
